A study of Mus musculus with 24 samples.

Results

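The 33 genes described here encode the enzymes of glycolysis, the kinases that set its flux, and the oxygen sensors, subunits and targets of the hypoxia-inducible factor (HIF). They were picked by gene symbol from a table of 55401 genes, and all 33 symbols were found, at 34 rows, because *Aldoa* names both the aldolase A gene and a short gene just upstream of it on mouse chromosome 7. Read counts were obtained by RNA-seq of polyA RNA from the mouse maternal-fetal interface (MFI), the tissue where placenta and uterus meet, on gestation days (gd) of mid to late pregnancy, gd10.5, gd14.5, gd16.5 and also gd19.5. At each stage, 3 libraries came from wild-type (WT) mice and 3 from homozygous C1qtnf6-knockout (KO) mice, which lack exons of the gene for the hormone CTRP6 after CRISPR-Cas9 deletion, so that 24 libraries fall into 8 groups. All mice were on the C57BL/6 background, the KO is a single engineered line, and no agent was given to any group. The labels do not say which libraries share a dam or litter or whether tissues were pooled, so the p-values below measure the spread between libraries, which may be technical in part.

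Glycolysis splits glucose into pyruvate in the cytosol, and lactate dehydrogenase turns pyruvate into lactate so that the pathway can run without oxygen. In low oxygen, the prolyl hydroxylases encoded by the *Egln* genes stop marking the HIF alpha subunits for destruction, and HIF with its partner ARNT binds short DNA motifs with the core ACGTG or GCGTG and raises transcription of most glycolytic genes, of pyruvate dehydrogenase kinase and of genes for mitophagy, pH control and collagen synthesis. The early mouse placenta develops before maternal blood flow is fully established, the trophoblast is known for a high glycolytic rate, and uterine decidual cells are known to switch to lactate production.

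Total counts ran from 20975717 to 37383108 per library. *C1qtnf6* stood between 64.7 and 168 CPM (reads of a gene relative to library size, scaled by TMM) in the 12 WT libraries and between 0.0341 and 2.05 CPM in the KO libraries, as the labels say. Libraries did not all hold the same mix of tissues. Summed CPM of 4 genes of yolk sac endoderm (*Afp*, *Apoa4*, *Ttr*, *Apob*) lay between 1151 and 19660 in 7 libraries, namely WT gd10.5 replicate 1, all 3 KO gd10.5 libraries, WT gd16.5 replicate 1 and KO gd16.5 replicates 1 and 2, and at 263 or less in the other 17. KO gd10.5 replicate 2 stood apart from its group, with 10650 CPM of 6 spongiotrophoblast markers against 786 to 1990 in the other gd10.5 libraries. The number of KO calls at the step to gd14.5 is given with and without it. The KO fold changes of single genes at that step include it. Summed CPM of 4 Y-linked genes was 40.0 or more in some libraries and 1.70 or less in the rest. In WT the former were gd14.5 replicate 3, gd16.5 replicate 1 and gd19.5 replicate 2. In KO they were gd10.5 replicate 2, gd14.5 replicate 3, gd16.5 replicates 1 and 2 and gd19.5 replicates 2 and 3. They were spread unevenly over the genotypes, and a Y-linked covariate stands among the alternatives. In bulk tissue, fewer cells of a type and less RNA per cell cannot be told apart, which holds for every result below.

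The 33 genes covered a wide range of levels, which are compared here as CPM per kb of exon. *Ldha*, lactate dehydrogenase A, was highest with a median of 156.5 CPM per kb over the 24 libraries, followed by *Epas1*, the HIF-2 alpha subunit, at 140.1, *Aldoa* at 132, *Tpi1* (triosephosphate isomerase) at 126 and *Pkm* (pyruvate kinase M) at 111. The ranges of these 5 genes overlapped one another. At the other end stood *Gapdh* at 2.43, *Aldoc* at 0.755 and *Car9* at 0.6001 CPM per kb. The counting left out reads that map to several places. Levels per kb also divide by the length of all exons of a gene, 4133 bases for *Gapdh*, whose longest coding transcript has 1420. The part of either in the low place of *Gapdh* was not tested. Of the *Gapdh* transcript, 88.0% matched other genes at 97% identity or more, in 48 genes, and the same held for at least 20% of the transcript of *Bnip3* (94.2%), *Eno1* (85.6%), *Pgk1* (68.8%), *Pkm* (65.5%), *Pgam1* (43.1%), *Gpi1* (36.3%) and *Bnip3l* (34.7%). Reads from the matched part of these 8 genes may map to several places and so be missing from the counts. Their levels may be understated to an unknown degree, and the share of reads lost was not measured. Reads were counted from either strand, and 26.4% of the *Ankrd37* exons and 22.3% of those of *Bnip3* overlap other genes, which makes these counts uncertain as well.

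**Figure D1:**
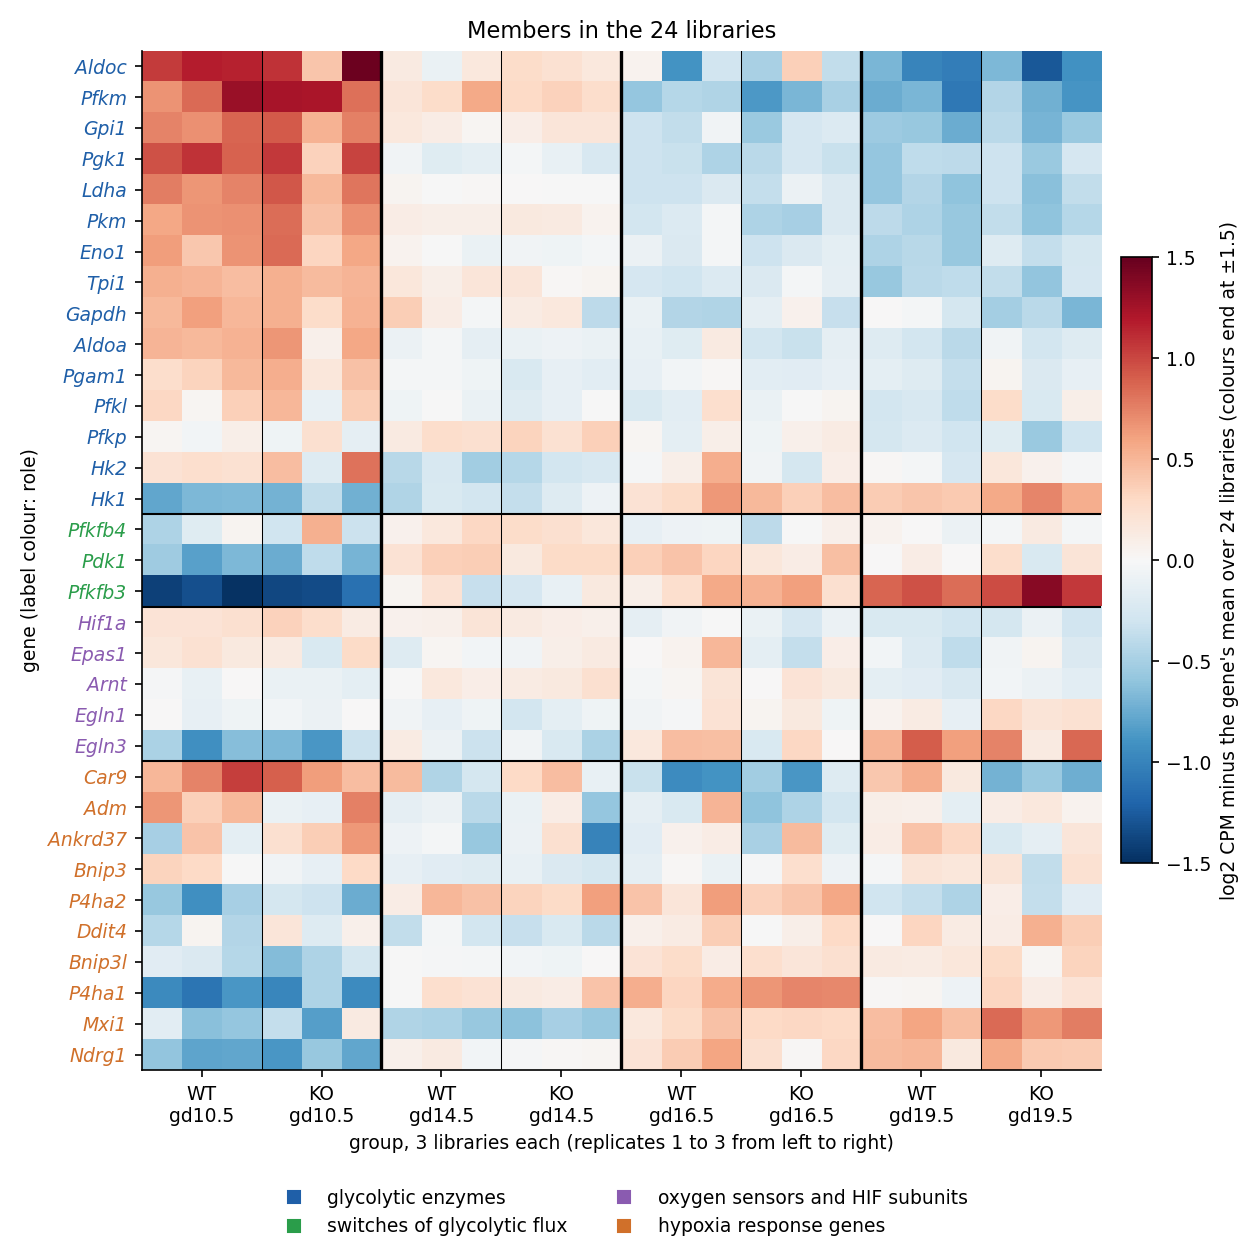
Level of the 33 genes in each of the 24 libraries (columns, 3 per group), as log2 CPM minus the gene's mean over all libraries, with gene labels coloured by role. Most glycolytic enzymes are red at gd10.5 and blue at gd19.5, while *Pfkfb3*, *P4ha1* and *Hk1* run the other way.

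Promoters are shown for 5 genes whose levels the results below turn on: *Pgk1*, *Ldha*, *Pfkfb3* and *P4ha1* differed strongly between stages, and *Car9* had the lowest p-value of the set between genotypes. Each run covers the 250 bases before and the 50 bases after a RefSeq transcription start in build GRCm38.p6, written 5′ to 3′ along the gene's strand, and capitals mark ACGTG or GCGTG on either strand (CACGT and CACGC when read on the other strand). The lines show *Pgk1* at chrX:106186850-106187149 (plus strand), *Ldha* at chr7:46845554-46845853 (plus strand), *Pfkfb3* at chr2:11553880-11554179 (minus strand), *P4ha1* at chr10:59323046-59323345 (plus strand) and *Car9* at chr4:43506776-43507075 (plus strand).
Pgk1: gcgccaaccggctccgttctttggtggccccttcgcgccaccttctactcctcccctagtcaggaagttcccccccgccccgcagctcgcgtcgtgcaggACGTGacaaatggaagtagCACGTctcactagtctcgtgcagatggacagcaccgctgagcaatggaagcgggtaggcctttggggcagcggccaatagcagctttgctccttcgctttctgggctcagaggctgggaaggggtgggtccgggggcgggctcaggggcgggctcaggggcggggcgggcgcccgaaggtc
Ldha: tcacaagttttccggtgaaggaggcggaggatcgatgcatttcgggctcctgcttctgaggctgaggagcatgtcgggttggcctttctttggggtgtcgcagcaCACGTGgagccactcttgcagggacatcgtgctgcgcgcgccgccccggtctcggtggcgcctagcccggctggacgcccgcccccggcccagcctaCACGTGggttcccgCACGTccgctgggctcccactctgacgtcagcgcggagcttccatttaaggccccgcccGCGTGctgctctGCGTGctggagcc
Pfkfb3: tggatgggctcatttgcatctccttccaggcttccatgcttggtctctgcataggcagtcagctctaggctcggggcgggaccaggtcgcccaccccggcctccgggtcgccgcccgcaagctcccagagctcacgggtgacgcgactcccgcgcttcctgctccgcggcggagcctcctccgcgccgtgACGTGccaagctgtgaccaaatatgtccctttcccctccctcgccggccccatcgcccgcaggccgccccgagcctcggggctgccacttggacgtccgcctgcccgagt
P4ha1: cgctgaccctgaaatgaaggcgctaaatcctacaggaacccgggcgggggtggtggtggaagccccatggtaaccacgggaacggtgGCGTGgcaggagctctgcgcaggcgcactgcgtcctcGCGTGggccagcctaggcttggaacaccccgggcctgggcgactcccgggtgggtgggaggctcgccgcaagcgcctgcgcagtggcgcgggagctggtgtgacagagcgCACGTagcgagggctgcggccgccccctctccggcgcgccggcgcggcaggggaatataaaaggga
Car9: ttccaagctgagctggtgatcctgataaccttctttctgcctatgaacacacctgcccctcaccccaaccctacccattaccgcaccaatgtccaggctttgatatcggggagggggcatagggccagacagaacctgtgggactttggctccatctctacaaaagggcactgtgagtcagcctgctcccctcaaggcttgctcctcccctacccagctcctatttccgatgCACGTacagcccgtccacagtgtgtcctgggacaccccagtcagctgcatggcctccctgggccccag
The motifs counted 2 in *Pgk1*, 7 in *Ldha*, 1 in *Pfkfb3*, 3 in *P4ha1* and 1 in *Car9*, where CACGTG counts as 2 because it reads ACGTG on both strands. These counts are for the promoters shown, and *Ldha* and *Pfkfb3* each have a second RefSeq promoter, with 2 motifs in *Ldha* and 4 in *Pfkfb3*. RefSeq promoters were found for 30 of the 33 genes, 45 in all. At least 1 motif lay in 37 of these 45 (82.2%), against 14380 of all 32851 promoters (43.8%), and ACGTG itself in 25 of 45 (55.6%) against 19.6% of all. The set holds genes picked as HIF targets, so these shares are no independent evidence of HIF control. The promoters of the set also held more CG pairs, with a median of 21 against 7, and the part of base composition in the difference was not tested. Of the genes higher at gd14.5 than at gd10.5 in both genotypes, 6 of 8 promoters (75.0%) and 5 of 5 genes held a motif, and of the genes lower, 17 of 22 promoters (77.3%) and 10 of 12 genes (83.3%), with no test of the difference. Of all genes with a promoter, 46.7% held a motif. These matches describe letters in a window, not binding.

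Between gd10.5 and gd14.5 the glycolytic enzymes fell together in both genotypes. By the quasi-likelihood test of edgeR, with Benjamini-Hochberg adjustment over all 19299 genes tested, 12 of the 15 enzymes were lower and 1 was higher at gd14.5 in WT, and 13 were lower and 2 higher in KO. Their median log2 fold change was -0.59 in WT and -0.57 in KO, where that of all genes was -0.019 and -0.0036. Summed over the 15 enzymes, CPM ran from 3388 to 4371 in the 6 gd10.5 libraries and from 2711 to 2756 at gd14.5, with no overlap. In the background, 27.8% of all genes were called lower and 26.2% higher in WT, and 26.4% and 24.7% in KO. Over the whole set of 33 genes, 23 were called in WT (8 higher, 15 lower) where 54.0% of all genes were called, and 23 in KO (9 higher, 14 lower) where 51.1% were.

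*Pgk1*, phosphoglycerate kinase, fell the most among the members that passed in both genotypes. The WT libraries of gd10.5 stood at 90.1, 98.3 and 85.7 CPM, those of gd14.5 at 44.7, 40.9 and 42.0, those of gd16.5 at 37.4, 36.9 and 33.8, and those of gd19.5 at 31.0, 35.9 and 35.3. The KO libraries of gd10.5 stood at 97.1, 59.1 and 94.2 CPM, those of gd14.5 at 45.7, 43.2 and 39.4, those of gd16.5 at 35.2, 39.1 and 36.9, and those of gd19.5 at 37.4, 31.7 and 38.9. All gd10.5 libraries lay above all later ones, KO gd10.5 replicate 2 (59.1) being the nearest to them. The step to gd14.5 was -1.10 ± 0.13 on the log2 scale in WT (SE, n = 3 against 3; edgeR adjusted p = 1.82e-06) and -0.96 ± 0.13 in KO (adjusted p = 8.53e-06).

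*Ldha*, which makes lactate, held 910.3, 847 and 898 CPM in WT and 1022, 749.7 and 929.8 CPM in KO at gd10.5, and between 531.5 and 552.5 in all 6 libraries of gd14.5. At gd19.5 its range was 346.5 to 430.3 CPM over both genotypes, so the stages gd10.5, gd14.5 and gd19.5 did not overlap. Its fold change from gd10.5 to gd14.5 was -0.71 ± 0.10 in WT (edgeR adjusted p = 1.76e-05) and -0.75 ± 0.10 in KO (adjusted p = 1.13e-05). Of the other enzymes, *Aldoc*, a minor aldolase, fell by 1.06 and 0.83, *Gpi1* (glucose-6-phosphate isomerase) by 0.67 and 0.59, *Pfkm* (muscle-type phosphofructokinase) by 0.61 and 0.80, and *Hk2* (hexokinase 2) by 0.62 and 0.73 on the log2 scale in WT and KO. *Eno1* (enolase 1), *Aldoa*, *Pkm*, *Pgam1* (phosphoglycerate mutase 1), *Tpi1* and *Gapdh* (glyceraldehyde-3-phosphate dehydrogenase) fell as well, by 0.35 to 0.59 in WT and by 0.42 to 0.65 in KO. The liver-type and platelet-type phosphofructokinases passed in KO only, *Pfkl* at -0.38 ± 0.14 and *Pfkp* at 0.29 ± 0.10, beside -0.30 ± 0.14 and 0.19 ± 0.10 in WT, and the difference between genotypes was not past the threshold for any gene of the set (below). *Hk1*, the hexokinase of most adult tissues, was the only enzyme to rise in both genotypes.

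The switches of glycolytic flux moved against the enzymes. *Pfkfb3*, whose product makes the strongest activator of phosphofructokinase, showed 11.5, 12.2 and 10.9 CPM in WT gd10.5, 31.2, 35.5 and 23.9 in gd14.5, 32.4, 36.2 and 45.0 in gd16.5, and 55.8, 58.8 and 54.2 in gd19.5. The KO libraries showed 11.8, 11.96 and 14.0 CPM, then 25.4, 28.0 and 33.6, then 43.7, 46.7 and 35.9, and at last 59.6, 78.2 and 63.2. All gd10.5 libraries lay below all others, and all gd19.5 libraries above all others. From gd10.5 to gd14.5 it rose by 1.39 ± 0.15 in WT (edgeR adjusted p = 7.64e-07) and by 1.20 ± 0.15 in KO (adjusted p = 4.03e-06), and from gd10.5 to gd19.5 by 2.29 ± 0.15 and 2.41 ± 0.16, which is 4.88-fold and 5.32-fold. *Pdk1*, a pyruvate dehydrogenase kinase, ran from 35.4 to 47.9 CPM over the 6 gd10.5 libraries and from 68.9 to 80.3 CPM at gd14.5. The rise was 0.99 ± 0.12 in WT and 0.84 ± 0.12 in KO (edgeR adjusted p = 2.05e-06 and 1.31e-05). *Pfkfb4*, a relative of *Pfkfb3*, did not pass, with 0.37 ± 0.17 and 0.20 ± 0.17.

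**Figure D2:**
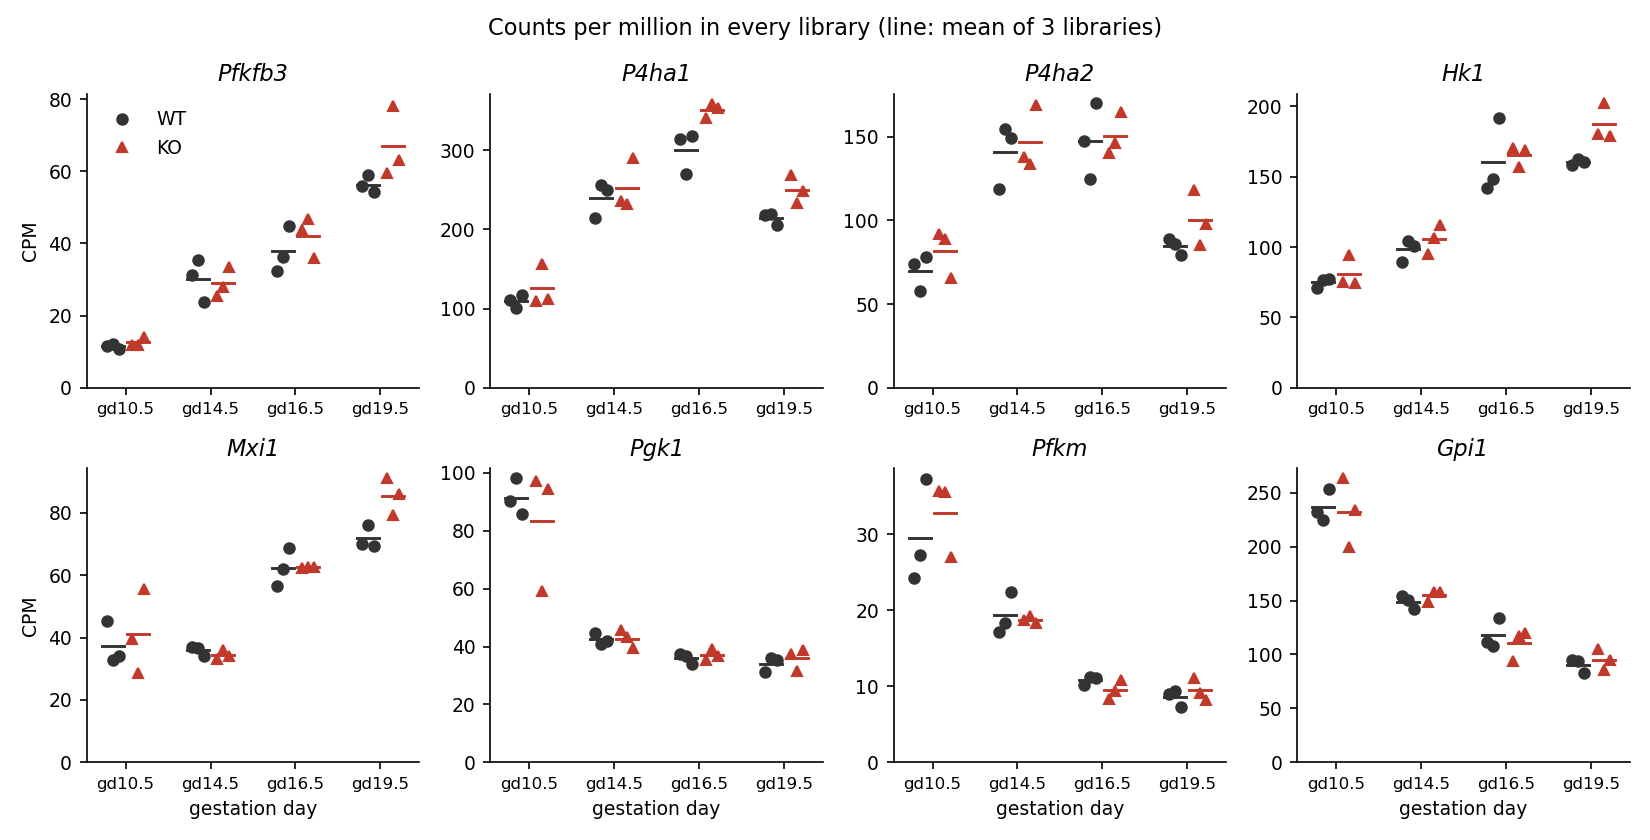
CPM of 8 genes in every library by gestation day (x axis), with WT as black circles, KO as red triangles and the mean of 3 libraries as a line. *Pfkfb3* climbs from 10.9 to 14.0 CPM at gd10.5 to 54.2 to 78.2 CPM at gd19.5, *Pgk1* drops after gd10.5, and *P4ha1* and *P4ha2* are lower again at gd19.5.

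Of the 5 oxygen sensors and HIF subunits, 3 passed over gd10.5 to gd19.5 in each genotype, near the share of all genes (62.7% in WT, 61.4% in KO). In WT 1 was higher and 2 were lower, and in KO 2 were higher and 1 was lower. *Hif1a*, the HIF-1 alpha subunit, ranged from 243 to 284 CPM at gd10.5 and from 182 to 210.4 CPM at gd19.5, and the decline over the whole period was -0.47 ± 0.07 in WT (edgeR adjusted p = 9.40e-06) and -0.46 ± 0.07 in KO (adjusted p = 1.45e-05). *Egln3*, a hydroxylase that HIF itself induces, was the one member of this group with a change above 1 on the log2 scale. It ran from 31.6 to 47.9 CPM over the 6 libraries of gd10.5, 43.2 to 65.4 over those of gd14.5, 51.1 to 82.7 over those of gd16.5 and 66.1 to 112 over those of gd19.5. Its rise from gd10.5 to gd19.5 was 1.36 ± 0.19 in WT (adjusted p = 4.99e-06) and 1.23 ± 0.19 in KO (adjusted p = 1.66e-05), and neighbouring stages overlapped. *Epas1* (595 to 1093 CPM over all 24 libraries), *Arnt* (64.5 to 90.5) and *Egln1* (51.6 to 77.1) each passed in 1 genotype at most at any step, with changes of at most 0.40 in size. These are transcripts, and HIF alpha is known to be controlled mainly as a protein.

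The 10 HIF targets of the set outside glycolysis did not move as a block. Between gd10.5 and gd14.5, 4 were higher and 3 lower in WT and 4 higher and 1 lower in KO. Of all genes, 26.2% were higher and 27.8% lower in WT, and 24.7% and 26.4% in KO. The median log2 fold change of the 10 targets was -0.013 in WT and -0.25 in KO. *P4ha1*, a prolyl hydroxylase subunit needed for collagen, stood at 112, 101 and 118 CPM in WT gd10.5, at 214, 257 and 250.1 in gd14.5, at 314, 269.8 and 318 in gd16.5, and at 218, 219 and 205 in gd19.5. Its KO libraries stood at 109, 156.5 and 112 CPM, at 236, 232 and 289.7, at 340.5, 359 and 354, and at 268, 234 and 248. Each gd10.5 library lay below every later one, and the KO gd16.5 libraries were the highest of all. The first step was a rise of 1.13 ± 0.12 in WT (edgeR adjusted p = 6.20e-07) and 1.00 ± 0.12 in KO (adjusted p = 2.36e-06). The related gene *P4ha2* rose by 1.01 ± 0.15 and 0.84 ± 0.15 over the same step. *Ndrg1*, a stress-response gene of trophoblast and other epithelia, rose by 0.78 ± 0.12 and 0.74 ± 0.12, and *Bnip3l*, a mitophagy receptor, by 0.25 ± 0.09 and 0.42 ± 0.09. *Bnip3*, the other mitophagy receptor, *Adm* (adrenomedullin, a vasodilator) and *Car9* (carbonic anhydrase 9) were lower in WT, at -0.38 ± 0.14, -0.71 ± 0.21 and -0.78 ± 0.24, and did not pass in KO (-0.25, -0.39 and -0.42). *Ddit4*, an inhibitor of mTORC1, passed in KO only (-0.35 ± 0.14, against 0.03 ± 0.14 in WT), and *Mxi1* and *Ankrd37* in neither.

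WT and KO are separate libraries, and over this first step 21.2% of all genes tested were called higher and 22.7% lower in both. Of the 33 genes, 7 were higher in both (*Bnip3l*, *Hk1*, *Ndrg1*, *P4ha1*, *P4ha2*, *Pdk1*, *Pfkfb3*), 12 were lower in both (*Aldoa*, *Aldoc*, *Eno1*, *Gapdh*, *Gpi1*, *Hk2*, *Ldha*, *Pfkm*, *Pgam1*, *Pgk1*, *Pkm*, *Tpi1*), 4 passed in WT only, 4 in KO only and 6 in neither, and 0 passed in opposite directions. Without KO gd10.5 replicate 2, 27 of the 34 rows passed in KO in place of 24. The KO calls of *Pgk1*, *Pfkfb3* and *P4ha1* held with each of the 6 KO libraries left out (edgeR adjusted p at most 0.000134). Markers of the tissue mix moved over the same step. The sum of all 6 spongiotrophoblast and glycogen cell markers went from 786 to 10650 CPM over the gd10.5 libraries to 20900 to 25640 CPM at gd14.5, that of 5 natural killer (NK) cell markers from 350.2 to 986 to 65.6 to 188 CPM, with *Ncr1* and *Klrb1c* at 3 counts or less in the gd14.5 groups, and that of 8 decidual stroma markers from 2416 to 13560 to 2703 to 3321 CPM. Their part in the changes of these genes was not tested.

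**Figure D3:**
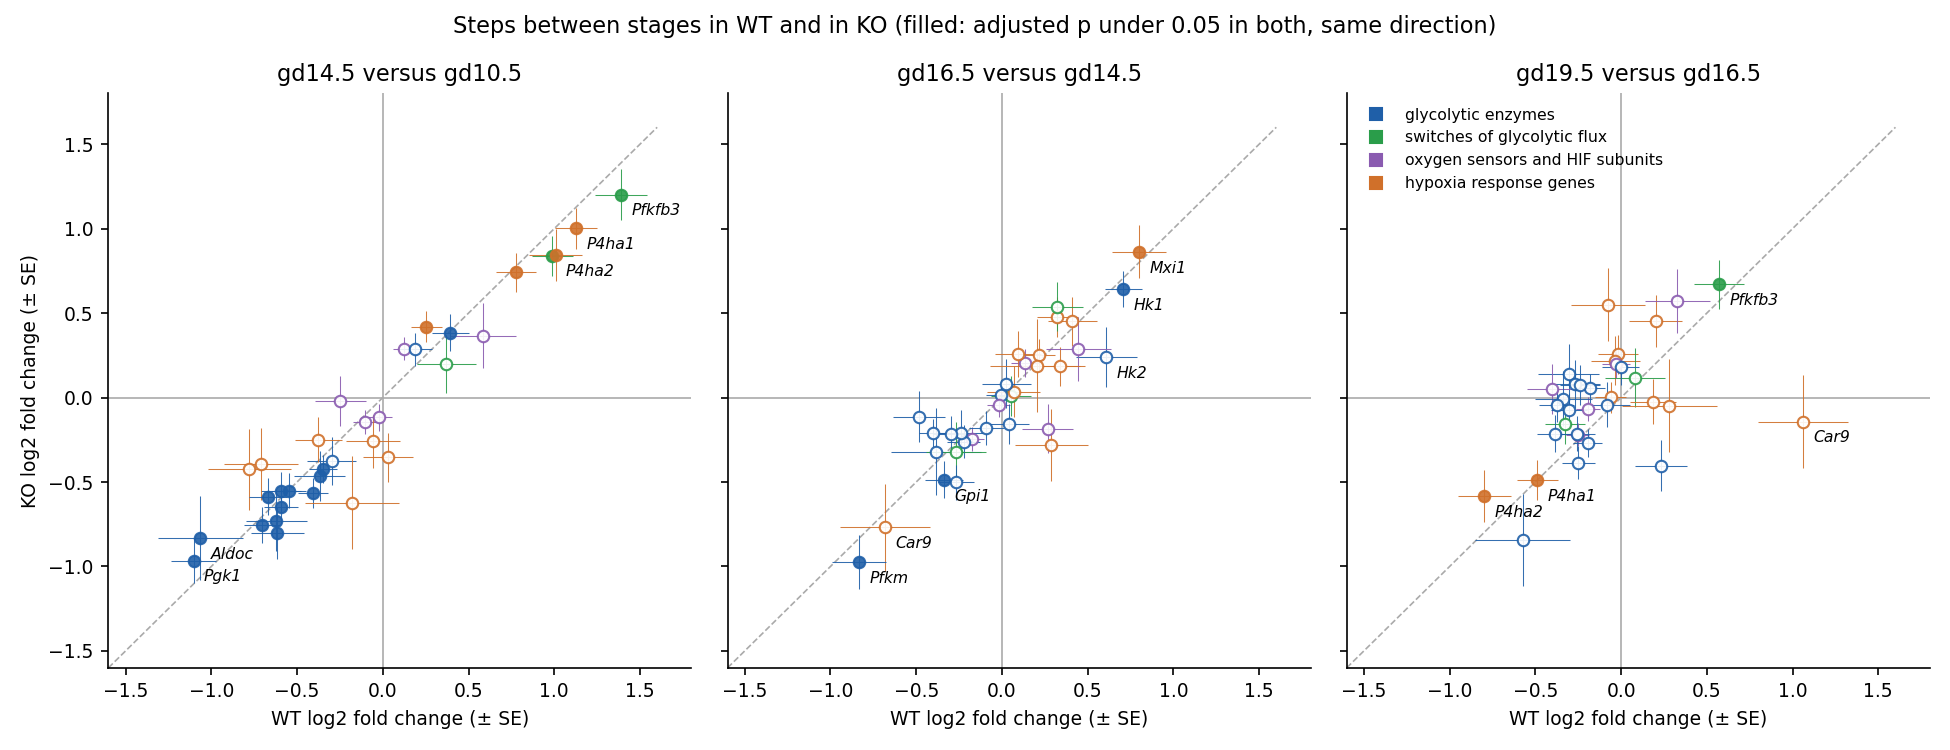
Log2 fold change of the 33 genes between neighbouring stages in WT (x axis) and KO (y axis), with SE bars, the line of equal change dashed and colours by role. Filled points passed the test in both genotypes (19 genes at the first step, 4 at the second, 3 at the third), and *Car9* at gd19.5 against gd16.5 lies farthest from the dashed line.

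From gd14.5 to gd16.5, 8 members passed in WT (4 higher, 4 lower) where 18.1% of all genes did (9.73% higher, 8.37% lower), and 11 in KO (6 higher, 5 lower) where 23.6% did (12% higher, 11.6% lower). The gd14.5 libraries enter both this step and the one before, so the 2 steps are not independent. *Hk1* and *Mxi1* rose in both genotypes and *Gpi1* and *Pfkm* fell in both. *Hk1* held 89.6, 105 and 101 CPM in WT gd14.5 and 142, 149 and 191.5 in WT gd16.5, after 71.1, 76.4 and 77.2 at gd10.5, and reached 158, 162.5 and 160.2 at gd19.5. Its KO values were 75.0, 94.3 and 74.1, then 95.4, 107 and 116, then 170.5, 157 and 169, and 180.5, 202.5 and 179 CPM. In both genotypes the gd16.5 libraries lay above the gd14.5 libraries, by 0.71 ± 0.11 in WT (edgeR adjusted p = 0.000134) and 0.64 ± 0.11 in KO (adjusted p = 0.000281).

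*Mxi1*, which codes for an antagonist of MYC, did not pass at the steps before and after and rose at this one. It read 45.2, 32.9 and 33.9 CPM in WT gd10.5, 36.9, 36.5 and 34.1 in gd14.5, 56.6, 61.9 and 68.8 in gd16.5, and 70.0, 76.1 and 69.3 in gd19.5. In KO it read 39.4, 28.5 and 55.4 CPM, 33.1, 35.9 and 34.1, 62.3, 62.7 and 62.4, and 91.2, 79.2 and 86.0. The gd14.5 and gd16.5 groups were fully apart, at 0.80 ± 0.16 in WT (edgeR adjusted p = 0.00130) and 0.86 ± 0.16 in KO (adjusted p = 0.000588).

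*Pfkm* read 24.2, 27.2 and 37.2 CPM in WT gd10.5, 17.2, 18.4 and 22.4 in gd14.5, 10.1, 11.2 and 11.1 in gd16.5, and 9.04, 9.41 and 7.22 in gd19.5. Its KO values were 35.7, 35.5 and 27.0 CPM, 18.7, 19.3 and 18.3, 8.37, 9.40 and 10.8, and 11.1, 9.17 and 8.18. Every gd16.5 library lay below every gd14.5 library, with -0.83 ± 0.16 in WT (edgeR adjusted p = 0.00109) and -0.98 ± 0.16 in KO (adjusted p = 0.000238). *Gpi1* was at 154.5, 150.1 and 142 CPM in WT gd14.5 and at 112, 108 and 134 in gd16.5, and in KO at 148, 158 and 158 against 94.2, 117 and 120.0. These groups did not overlap either, at -0.34 ± 0.11 (edgeR adjusted p = 0.0379) and -0.49 ± 0.11 (adjusted p = 0.00349), but the WT call was lost without any of the 3 WT gd14.5 libraries or WT gd16.5 replicate 1 or 2 (adjusted p from 0.0623 to 0.147), and both calls were lost with yolk sac markers as a covariate (-0.30, adjusted p = 0.0736 in WT and -0.41, adjusted p = 0.0575 in KO). Before this step *Gpi1* had been at 232, 224 and 253.5 CPM in WT and 264, 199.5 and 234 CPM in KO at gd10.5, and after it at 94.9, 93.5 and 82.8 CPM and 105.1, 85.4 and 94.8 CPM at gd19.5. *Gapdh*, *Hk2*, *Ndrg1* and *Tpi1* passed in WT only, and *Bnip3l*, *Car9*, *Ddit4*, *Hif1a*, *P4ha1*, *Pfkfb3* and *Pkm* in KO only. The number called in KO was 6 of 34 rows without KO gd14.5 replicate 1 or without KO gd16.5 replicate 2, and in WT 4 without WT gd14.5 replicate 1. Spongiotrophoblast markers summed to 23610 to 25640 CPM in WT gd14.5 and 20910 to 29000 in WT gd16.5. In KO they summed to 20900 to 25020 and then 34680 to 37630 CPM. Giant cell markers went from 12520 to 13200 CPM to 16650 to 23790 in WT, and from 10950 to 13600 to 24980 to 29180 in KO. NK cell markers, with *Ncr1* and *Klrb1c* at 3 counts or less, went from 94.7 to 152 CPM to 33.65 to 53.9 in WT. In KO they went from 65.6 to 188 CPM to 11.03 to 18.0. The part of these markers was not tested.

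From gd16.5 to gd19.5, 6 members passed in WT (2 higher, 4 lower) where 4.64% of all genes did (1.97% higher, 2.67% lower), and 4 in KO (1 higher, 3 lower) where 5.98% did (3.02% higher, 2.96% lower). The members that passed in both were *Pfkfb3*, which rose again, and *P4ha1* and *P4ha2*, which fell. *P4ha2* held 74.0, 57.9 and 78.1 CPM in WT gd10.5, 118, 155 and 149 in gd14.5, 147.5, 125 and 170.1 in gd16.5, and 89.1, 86.0 and 79.4 in gd19.5. Its KO values were 91.6, 88.7 and 65.3 CPM, 138, 133.5 and 169, 140.0, 146 and 165, and 118, 85.5 and 97.5. The gd19.5 libraries lay below the gd16.5 libraries in both genotypes, at -0.80 ± 0.15 (edgeR adjusted p = 0.00668) and -0.58 ± 0.15 (adjusted p = 0.0293). *P4ha1* fell by 0.49 ± 0.12 in WT (adjusted p = 0.0252) and by 0.49 ± 0.12 in KO (adjusted p = 0.0213), and *Pfkfb3* rose by 0.57 ± 0.15 (adjusted p = 0.0319) and 0.67 ± 0.15 (adjusted p = 0.0124).

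The calls of this last step rested on single libraries more than those of the earlier ones. The *P4ha2* call in KO was lost without KO gd16.5 replicate 2 or 3 or KO gd19.5 replicate 2 or 3 (adjusted p from 0.0844 to 0.162), and so was that of *P4ha1* in KO (0.0506 to 0.119), and both were lost with yolk sac markers as a covariate, at -0.60 (0.0685) and -0.48 (0.0658). In WT, *P4ha1* did not pass without WT gd16.5 replicate 1 or 3 or any WT gd19.5 library (0.0604 to 0.119), nor with total counts (0.0590), and *Pfkfb3* did not pass without WT gd16.5 replicate 1 or 2 or any WT gd19.5 library (0.0675 to 0.113). In KO, *Pfkfb3* lost its call only without KO gd19.5 replicate 2 (adjusted p = 0.0962), and the *P4ha2* call in WT held without each of its 6 libraries (adjusted p from 0.00574 to 0.0479). The number of rows called was 1 in WT without any 1 of the gd19.5 libraries, 2 without WT gd16.5 replicate 3 and 3 without replicate 1. In KO it was 0 without KO gd19.5 replicate 2, 2 without KO gd19.5 replicate 3 and 1 without KO gd16.5 replicate 2 or 3. *Arnt*, *Car9* and *Eno1* passed in WT only and *Pfkp* in KO only. Over this step spongiotrophoblast markers went from 34680 to 37630 CPM to 14660 to 19850 CPM and uterine smooth muscle markers from 385 to 465 CPM to 576 to 763 CPM in KO. In WT, labyrinth markers went from 689.8 to 805.7 CPM to 490.0 to 563.6 CPM, NK cell markers from 33.6 to 53.9 CPM to 16.0 to 20.9 CPM and red cell markers from 3828 to 9242 CPM to 3129 to 3760 CPM. Their part was not tested.

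Over the whole period, gd19.5 against gd10.5, 25 members passed in WT (9 higher, 16 lower) where 62.7% of all genes did (30.5% higher, 32.2% lower), and 23 in KO (9 higher, 14 lower) where 61.4% did (29.8% higher, 31.6% lower). In 8 genes all 6 libraries of gd19.5 lay above all 6 of gd10.5 (*Bnip3l*, *Egln3*, *Hk1*, *Mxi1*, *Ndrg1*, *P4ha1*, *Pdk1*, *Pfkfb3*), and in 13 they lay below (*Aldoa*, *Aldoc*, *Eno1*, *Gapdh*, *Gpi1*, *Hif1a*, *Ldha*, *Pfkm*, *Pfkp*, *Pgam1*, *Pgk1*, *Pkm*, *Tpi1*). The same 8 and 13 genes passed the test in both genotypes. Of all genes of at least 0.5 CPM, 24.7% lay above and 25.8% below in the same way over the 6 libraries of each stage, and of all genes tested 26.4% were called higher and 28.1% lower in both genotypes. The summed CPM of the 15 enzymes had a median of 3954, then 2746, then 2385 and last 2155 over the 4 stages. With the study's further limit of an absolute log2 fold change over 1, 12 rows passed in WT and 13 in KO, where 29.5% and 28.8% of all genes did. It left 6, 0 and 1 rows in WT at the 3 steps in order, where 22.5%, 5.09% and 1.49% of all genes passed, and 3, 0 and 0 in KO, where 20.1%, 8.61% and 2.19% did. At gd16.5 the enzyme sum ran from 2259 to 2754 and at gd19.5 from 2015 to 2394, so these neighbouring stages overlapped.

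Scaling by total counts in place of TMM shifted the median log2 fold change of all genes by more than 0.1 in several stage comparisons, to -0.127 in both genotypes at gd14.5 against gd10.5, to -0.160 in WT and -0.218 in KO at gd16.5 against gd14.5, to 0.127 in KO at gd19.5 against gd16.5, and to -0.194 and -0.232 at gd19.5 against gd10.5. No member called in a stage comparison changed its direction under total counts, RLE or upper-quartile scaling. The split of calls did move with total counts. At gd14.5 against gd10.5 all genes then split into 3965 higher and 6580 lower in WT, in place of 5061 and 5368, and into 3501 and 6444 in KO, in place of 4763 and 5101. At gd16.5 against gd14.5 they split into 1082 and 3729 in WT, in place of 1878 and 1616, and into 1369 and 6136 in KO, in place of 2320 and 2234. At gd19.5 against gd16.5 they split into 665 and 221 in WT, in place of 380 and 516, and into 2414 and 470 in KO, in place of 582 and 572, and over the whole period into 4614 and 7767 in WT and 4202 and 8097 in KO, in place of 5887 and 6219 and of 5745 and 6107. The members split at gd16.5 against gd14.5 into 2 higher and 10 lower in WT and 2 and 14 in KO, and at gd19.5 against gd16.5 into 2 and 1 in WT and 6 and 2 in KO.

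Ratios between related genes within a library do not depend on library scaling, and they are given per length and without a test. The length is that of all exons of a gene, 8532 bases for *Hk1* and 5969 for *Hk2*. The longest coding transcripts have 4278 and 5513 bases. Another choice of length would scale a ratio alike at all stages, so the ratios show changes between stages. They do not settle which gene of a pair was higher. Stage by stage, the ratio of *Hk2* to *Hk1* was 3.93 ± 1.13 (SD, n = 6 libraries), 1.84 ± 0.125, 1.55 ± 0.215 and 1.38 ± 0.125. At gd10.5 the lowest ratio was 2.22, in KO gd10.5 replicate 2, and it still lay above the highest of gd14.5 (2.00). The ratio of *Pfkfb4* to *Pfkfb3* went from 2.22 ± 0.674 to 1.12 ± 0.239, 0.669 ± 0.131 and 0.459 ± 0.0442 over the 4 stages. By these lengths *Pfkfb3* passed from the lower to the higher of the pair. The ratio of *Pfkm* to *Pfkl* was 0.984 ± 0.251 at gd10.5 and 0.364 ± 0.0493 at gd19.5. By the same lengths *Egln3* was below *Egln1* at gd10.5 (0.862 ± 0.112) and above it at gd19.5 (1.87 ± 0.357).

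The mean ratio of *Bnip3* to *Bnip3l* was 1.39 ± 0.0872 at gd10.5 and 0.888, 0.852 and 0.915 at the later stages, where single libraries reached 1.04. The *Epas1* to *Hif1a* ratio stayed between 2.61 and 5.17 in all 24 libraries with no order by stage. *Aldoc* was never more than 0.00919 of *Aldoa*, and *P4ha2* went from 0.427 ± 0.0684 of *P4ha1* at gd10.5 to 0.262 ± 0.0161 at gd19.5. *Pfkp* to *Pfkl* had its highest mean at gd14.5 (1.76 ± 0.134, against 1.22 ± 0.306 at gd10.5), when the WT libraries (1.59 to 1.76) lay below those of KO (1.77 to 1.99), and at gd19.5 the order was turned, with 1.43 ± 0.0373 (SD, n = 3) in WT and 1.06 ± 0.0482 in KO. WT and KO libraries were apart in 3 other places and overlapped for every other pair and stage. At gd16.5 *Hk2* to *Hk1* ran from 1.66 to 1.81 in WT and from 1.26 to 1.51 in KO, and *Egln3* to *Egln1* from 1.501 to 1.82 and from 1.07 to 1.45. At gd19.5 *Pfkfb4* to *Pfkfb3* ran from 0.475 to 0.518 in WT and from 0.392 to 0.457 in KO. Of single genes of at least 0.5 CPM, 3.98%, 12.6%, 17.8% and 21.4% were apart between genotypes, in order of stage. The share for ratios of other genes was not measured, so these gaps are not read as genotype effects. Because the counting limit given above may touch 94.2% of *Bnip3* and 34.7% of *Bnip3l*, the ratios of *Bnip3* to *Bnip3l* do not show which of the pair was higher.

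**Figure D4:**
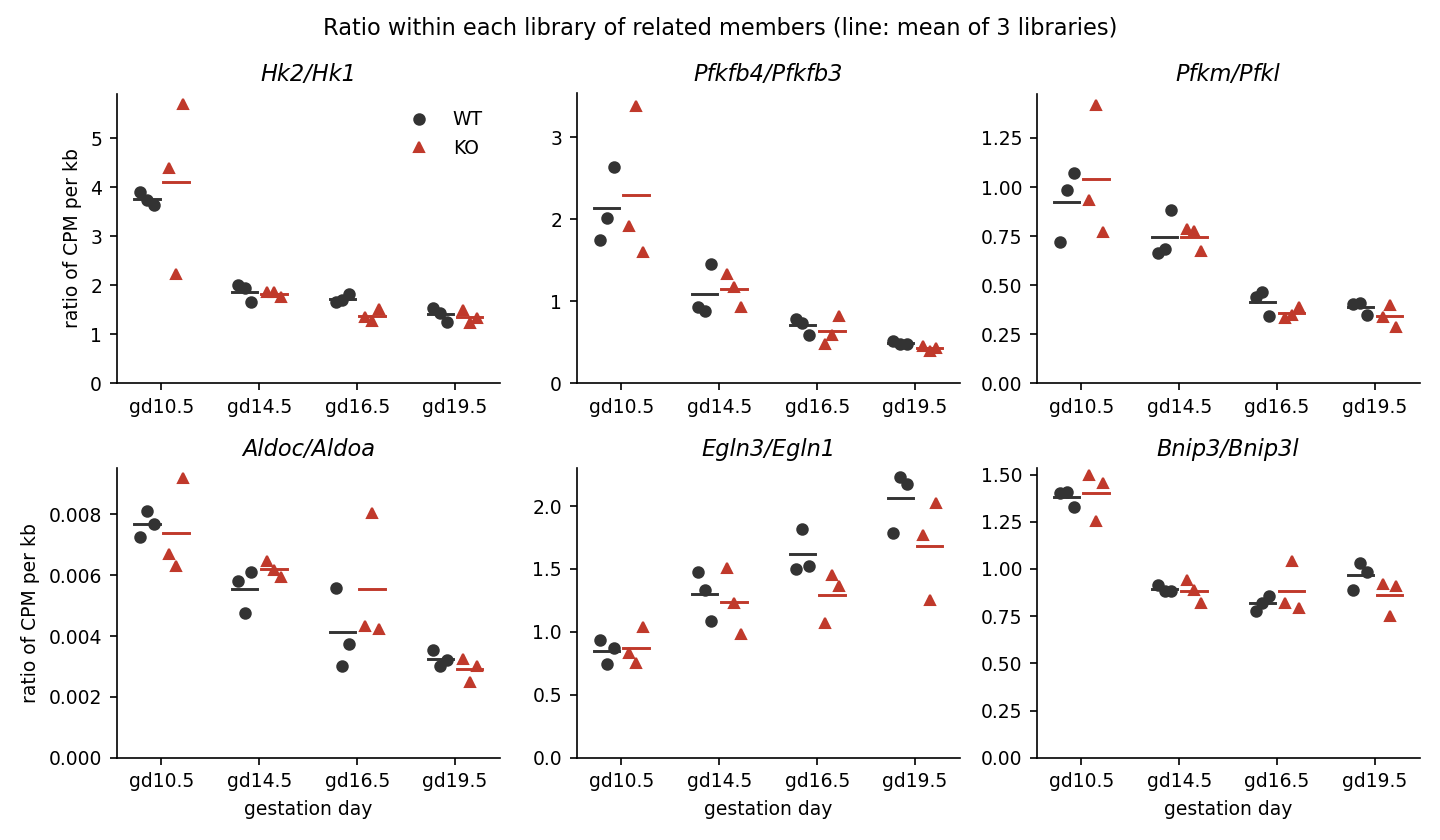
Ratio of CPM per kb between related genes in every library by gestation day, for 6 pairs, with WT as black circles, KO as red triangles and the mean of 3 libraries as a line. *Hk2*/*Hk1* falls from a mean of 3.93 to 1.38 and *Pfkfb4*/*Pfkfb3* from 2.22 to 0.459, while *Egln3*/*Egln1* climbs from 0.862 to 1.87.

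Other genes of the same pathways, from lists of 32 glycolysis and 38 hypoxia genes, moved in both directions. At gd14.5 against gd10.5, 7 of the other glycolysis genes were higher and 7 lower in both genotypes, and 11 and 8 of the other hypoxia genes, of 31 and 37 tested in both. These counts stand beside 21.2% and 22.7% of all genes, given above. *Pdk4*, a relative of *Pdk1*, rose the most of those that passed in both, from 2.67 to 3.48 CPM in WT gd10.5 and 1.42 to 8.34 CPM in KO gd10.5 to between 27.2 and 36.1 CPM in the gd14.5 libraries (3.36 ± 0.35 and 2.89 ± 0.35, edgeR adjusted p = 5.27e-07 and 2.27e-06). *Rora*, a nuclear receptor gene that HIF can induce, rose by 1.95 ± 0.23 and 1.55 ± 0.23. *Slc2a1*, the glucose transporter GLUT1 of trophoblast, was higher at gd14.5 in both genotypes and rose again by 0.77 ± 0.20 at gd16.5 in WT (adjusted p = 0.0105), and in KO by 0.62 ± 0.20 (adjusted p = 0.0299), a call lost with total counts (adjusted p = 0.124) and without KO gd14.5 replicate 1 or 2 or KO gd16.5 replicate 1 or 3 (0.0886 to 0.110).

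*Hif3a*, a HIF alpha relative that can dampen the response, showed the largest later swing of these lists. It was at 8.42 to 12.2 CPM in the 6 gd14.5 libraries, at 33.1, 31.1 and 35.4 CPM in WT gd16.5 and 22.9, 49.9 and 28.6 CPM in KO gd16.5, and at 14.3 to 20.7 CPM at gd19.5. The rise to gd16.5 was 1.82 ± 0.24 in WT (edgeR adjusted p = 3.74e-05) and 1.77 ± 0.24 in KO (adjusted p = 4.33e-05). The fall to gd19.5, by 0.84 ± 0.24 (adjusted p = 0.0475) and 1.04 ± 0.24 (adjusted p = 0.0165), did not pass in WT without any 1 of its 6 libraries (0.0711 to 0.228) nor in KO without KO gd16.5 replicate 2 or KO gd19.5 replicate 2 or 3 (0.0613 to 0.129). *Hmox1* (heme oxygenase 1) fell at each step in both genotypes, by 0.75 and 0.68 at gd16.5 and by 0.52 and 0.46 at gd19.5, where the WT call was lost without WT gd16.5 replicate 3 or WT gd19.5 replicate 2 or 3 (adjusted p from 0.0662 to 0.101) and the KO call without KO gd16.5 replicate 2 or 3 or KO gd19.5 replicate 2 or 3 (0.0611 to 0.157). *Pgm2*, a phosphoglucomutase, fell by 0.63 and 0.49 at gd16.5. *Tigar*, a fructose bisphosphatase that lowers glycolytic flux, fell at gd19.5 by 0.94 ± 0.14 and 0.58 ± 0.14, and *P4hb*, the partner subunit of the prolyl hydroxylases, by 0.70 ± 0.12 and 0.57 ± 0.12. In KO the *Tigar* call was lost without KO gd16.5 replicate 3 or KO gd19.5 replicate 2 or 3 (adjusted p from 0.0547 to 0.114) and the *P4hb* call without KO gd19.5 replicate 2 (0.0725).

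Some isozymes outside the set were highest in libraries that held yolk sac markers. *Pklr* (the liver and red cell pyruvate kinase) lay between 2.78 and 26.4 CPM in the 7 libraries with yolk sac markers above 1000 CPM and between 0.0842 and 4.35 CPM in the other 17. *Fbp2* (a fructose bisphosphatase) lay between 1.83 and 19.6 CPM against 0.108 to 1.55, and *Hkdc1* (a hexokinase) between 5.64 and 26.7 CPM against 0.729 to 8.84, so that the ranges of *Pklr* and *Hkdc1* overlapped. By stage, all 6 gd10.5 libraries of *Pklr*, at 2.78 CPM or more, lay above all 6 of gd14.5, at 0.912 CPM or less. *Pklr* was called lower at gd14.5 than at gd10.5, at -3.75 ± 1.19 in WT (edgeR adjusted p = 0.0121, and 0.0514 without WT gd14.5 replicate 1) and at -4.66 ± 1.26 in KO (adjusted p = 0.00443, and 0.136 with yolk sac markers as a covariate).

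No member passed the test between KO and WT at any stage. By edgeR on the 6 libraries of a stage, 0 of the 33 genes passed at any of the 4 stages, where, in order of stage, 0.00572%, 0.0166%, 0.00586% and 0.115% of all genes did, and 0, 0, 2 and 10 had an unadjusted p under 0.05, where 0.801%, 6.78%, 11.1% and 13.5% of all genes did. DESeq2 called 0 at each stage as well, and 0 passed with the fold limit of the study (at gd19.5, 0.023% of all genes did). Averaged over the 4 stages 0 passed, where 0.0104% of all genes did, and 2 had an unadjusted p under 0.05, where 6.81% did. With the fold limit 0.00518% of all genes passed in that average, and no member. The interaction of genotype and stage passed for 0 members, where 0.0% of all genes passed and 7.23% had an unadjusted p under 0.05, and 1 member had an unadjusted p under 0.05. The median log2 fold change of the 33 genes was 0.029, -0.015, 0.0064 and 0.065 at the 4 stages, against 0.010, -0.0026, 0.0083 and -0.0067 for all genes. A missed threshold does not show that the genotypes are equal. In order of stage, the log2 fold changes of single genes ran from -0.27 to 0.46, from -0.18 to 0.25, from -0.51 to 0.24 and from -1.06 to 0.33.

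*Car9*, the acid-base enzyme that is among the most used hypoxia markers, had the lowest p of the set between genotypes. The WT libraries of gd10.5 held 1.93, 2.27 and 2.79 CPM, those of gd14.5 held 1.90, 0.995 and 1.14, those of gd16.5 held 1.07, 0.707 and 0.730, and those of gd19.5 held 1.79, 1.98 and 1.502. The KO libraries held 2.54, 2.10 and 1.87 CPM, 1.67, 1.88 and 1.26, 0.946, 0.740 and 1.19, and 0.830, 0.921 and 0.818. The genotypes overlapped at the first 3 stages and were apart at gd19.5, where the fold change was -1.06 ± 0.20 (edgeR unadjusted p = 0.000401, adjusted p = 0.118), which did not pass. Without an expression filter the adjusted p was 0.00227, and with each library left out in turn it ran from 0.142 to 0.321. In WT the rise from gd16.5 to gd19.5 passed (1.06 ± 0.26, adjusted p = 0.0279) and the KO value was -0.14 ± 0.27, but the test of the interaction over the 4 stages gave an unadjusted p of 0.00795 and an adjusted p of 0.599. All of these levels are low, at 2.79 CPM or less.

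*Gapdh* was second, and it was the reference gene of the study's RT-qPCR and so bears on other measurements. The WT libraries of gd10.5 read 14.1, 15.4 and 14.3 CPM, those of gd14.5 read 13.1, 10.9 and 9.89, those of gd16.5 read 9.42, 7.43 and 7.35, and those of gd19.5 read 10.2, 9.90 and 8.39. The KO libraries ranged from 12.2 to 14.6 CPM at gd10.5 and then read 10.9, 11.3 and 7.70, then 9.16, 10.6 and 7.94, and last 7.08, 7.64 and 6.27. At gd19.5 all KO libraries lay below all WT libraries, at -0.47 ± 0.12 (edgeR unadjusted p = 0.00309, adjusted p = 0.181, and 0.0270 without an expression filter), and at the other stages the genotypes overlapped. Between gd10.5 and gd19.5 *Gapdh* fell by 0.62 ± 0.15 in WT (adjusted p = 0.00128) and by 0.98 ± 0.15 in KO (adjusted p = 1.42e-05). The smaller steps were less stable. The fall at gd14.5, by 0.37 in WT and 0.46 in KO, lost its call in WT without any gd10.5 library or WT gd14.5 replicate 2 or 3 (adjusted p from 0.0601 to 0.162), without an expression filter (0.106) and with Y-linked counts as a covariate (0.0574). It lost its call in KO without KO gd10.5 replicate 1 or KO gd14.5 replicate 3 (0.0520 to 0.0967), with yolk sac markers as a covariate (0.115) and in a fit of the 6 libraries alone (0.0864). The fall at gd16.5 in WT, by 0.48, lost its call without WT gd14.5 replicate 1 or 2 or WT gd16.5 replicate 2 or 3 (0.0514 to 0.173). As given above, reads from most of this transcript may be missing from the counts, whereas RT-qPCR primers may read any part of it.

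The other members with the lowest p at a stage differed by less. At gd10.5 *Ankrd37*, an ankyrin repeat gene induced by HIF, held 7.37, 14.0 and 9.43 CPM in WT and 12.36, 13.4 and 16.4 in KO, and *Ddit4* held 16.2, 22.5 and 16.1 against 24.8, 19.0 and 23.1. Both overlapped between genotypes (0.46 ± 0.25 and 0.29 ± 0.18, edgeR adjusted p = 1.0). At gd14.5 *Pgam1* held 35.9, 35.9 and 35.2 CPM in WT and 31.4, 33.7 and 32.9 in KO, without overlap (-0.13 ± 0.06, adjusted p = 0.736), and *Pfkp* 165, 181 and 178.5 against 189.5, 177 and 194, with overlap (0.09 ± 0.06, adjusted p = 0.807). At gd16.5 *P4ha1* was above WT in all 3 KO libraries (0.24 ± 0.09, adjusted p = 0.433), and *Adm*, at 90.7, 85.3 and 143 CPM in WT and 65.6, 72.8 and 82.7 in KO, was below in all 3 (-0.51 ± 0.20, adjusted p = 0.433). Averaged over the stages the lowest p values were those of *P4ha1* (0.18 ± 0.06, adjusted p = 0.598) and *Hk1* (0.12 ± 0.05, adjusted p = 0.694).

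**Figure D5:**
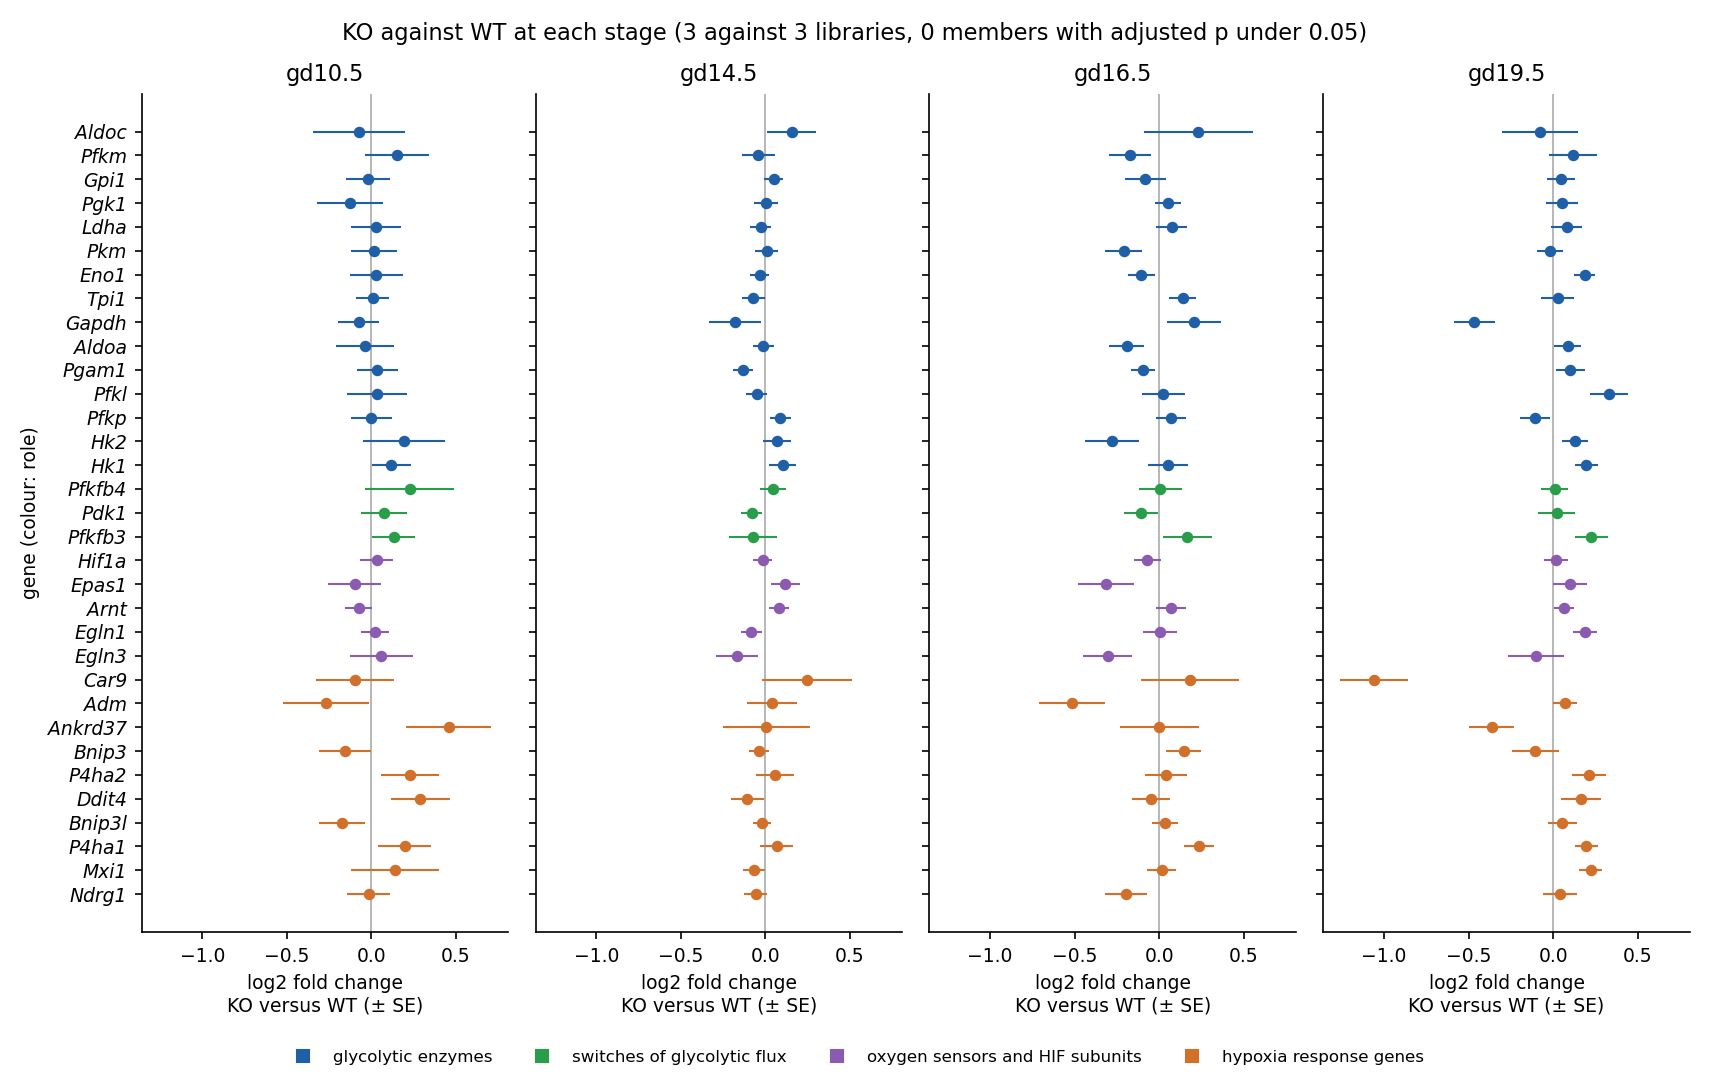
Log2 fold change of KO against WT (x axis, point and SE) for each of the 33 genes at each stage, coloured by role. Most genes sit within 0.3 of 0, and *Car9* at gd19.5 (-1.06), *Adm* at gd16.5 (-0.51) and *Gapdh* at gd19.5 (-0.47) lie farthest to the left, although none of them passed the test.

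In order of stage, 0, 1, 3 and 9 members did not overlap between genotypes, where 3.98%, 12.6%, 17.8% and 21.4% of all genes of at least 0.5 CPM did not overlap. The 9 at gd19.5 were 7 higher and 2 lower in KO. Cell type markers were also apart between genotypes. At gd14.5 there was no overlap in the labyrinth markers (767 to 814.5 CPM in KO, 847 to 958 in WT) or in 8 red cell markers (3508 to 4023 against 3373 to 3496). At gd16.5 the summed spongiotrophoblast markers did not overlap (34680 to 37630 CPM in KO, 20910 to 29000 in WT), nor did those of 5 giant cell markers (24980 to 29180 in KO, 16650 to 23790 in WT), 7 labyrinth markers (481.7 to 681.8 against 689.8 to 805.7, with *Synb* at 3 counts or less), 5 uterine smooth muscle markers (385 to 465 against 503.5 to 695) and those of NK cells (11.03 to 18.0 against 33.6 to 53.9 CPM, with *Ncr1* and *Klrb1c* at 3 counts or less). At gd19.5 there was no overlap in 8 decidual stroma markers (2199 to 2552 CPM in KO, 2750 to 3988 in WT), 5 NK cell markers (9.45 to 15.7 against 16.0 to 20.9, with *Ncr1* at 3 counts or less in both) and 4 macrophage markers (945 to 982 against 790 to 897). Their part in the differences of these genes was not tested. Of the 29 to 31 other glycolysis genes and 36 to 37 other hypoxia genes tested at a stage, 0 passed, and the lowest p values were those of *Angptl4* at gd10.5 (0.32 ± 0.16), *Slc16a1* at gd14.5 (-0.18 ± 0.07), *Rora* at gd16.5 (0.44 ± 0.08, edgeR adjusted p = 0.277, and 0.00845 by DESeq2) and *Loxl2* at gd19.5 (0.47 ± 0.09, adjusted p = 0.118, and 0.00243 by DESeq2). *Loxl2*, a collagen cross-linking enzyme, held 31.7, 26.9 and 29.2 CPM in WT gd19.5 and 38.2, 45.7 and 39.8 in KO gd19.5, without overlap.

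The upstream row that shares the symbol *Aldoa* (ENSMUSG00000114515) held at most 0.681 CPM in any library. It was called higher at gd14.5 than at gd10.5 in both genotypes, at 1.47 ± 0.39 (edgeR adjusted p = 0.00393) and 1.29 ± 0.43 (adjusted p = 0.0212), opposite to aldolase A itself (ENSMUSG00000030695). The KO call was lost without KO gd10.5 replicate 1 or KO gd14.5 replicate 1 or 3, with adjusted p from 0.0663 to 0.107, by DESeq2 (0.0715), without an expression filter (0.0555) and with yolk sac markers as a covariate (0.151). With 2 to 20 counts per library it is not described further.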

How the data were processed

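Per the labels and the methods of the study, RNA of the MFI was made into TruSeq stranded mRNA libraries and sequenced as paired reads. The authors trimmed reads with Trim Galore 0.6.4, aligned them to GRCm38 with STAR 2.7.3a and deposited raw read counts per gene from featureCounts (Subread 2.0.0) at default settings, which ignore strand and leave out multi-mapping reads. The counts carry no normalization, and all count columns were mapped to samples. KO libraries are numbered 1 to 3 as in the table and descriptions, and their titles differ.

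In R 4.3.3, edgeR 4.0.16 (glmQLFit and glmQLFTest) tested the counts, following filterByExpr (minimum count 10, minimum total count 15) and TMM scaling. KO was compared with WT on the 6 libraries of a stage, and stages, the average over stages and the interaction on all 24. A gene passed at a Benjamini-Hochberg adjusted p under 0.05 over all genes tested. CPM used TMM library sizes, and CPM per kb the exon length in the table. Transcripts were compared with BLAST 2.17.0, and tables and plots were made with Python 3.11.15 and matplotlib 3.10.9.

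Alternatives were RLE, upper-quartile and total-count scaling, no filter, at least 10 counts in every library, a replicate block, a Y-linked covariate, the other set of libraries (6 or 24), DESeq2 1.42.0, the study's fold limit (absolute log2 fold change over 1) and each library left out. A yolk sac covariate (log2 summed CPM of the 4 markers) was added after seeing the data. The steps were tested on simulated data. Members, gene lists and tests were chosen with earlier results of these data known. Genes given with every library were, per step, up to 4 with the largest WT change among those passing in both genotypes, and, per genotype comparison, up to 2 with the lowest p, plus *Gapdh*. Of the genes this rule names, 1 is not reported here. *Ldha*, *Pdk1*, *Egln3* and *Hif1a* were described further, and *Fbp2* and *Hkdc1* named, after their values were seen. Replicate numbers did not pair libraries (mean correlation of deviations -0.015 for the same number, range -0.455 to 0.469), so the block stands only among the alternatives.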

Additional observations from a re-analysis of the deposited data

How the results depend on the processing

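The counts here include the upstream *Aldoa* row (34 rows). KO against WT gave 0 calls at each stage, in the average and in the interaction under every alternative run, except 3 at gd19.5 without an expression filter (*Car9*, *Gapdh* and *Pfkl*, the last named after its values were seen). With each library left out, these counts ran from 0 to 0. For stage steps, the main counts in WT were 24 (gd14.5 against gd10.5), 8 (gd16.5 against gd14.5), 6 (gd19.5 against gd16.5) and 26 (gd19.5 against gd10.5), with 21 to 22, 4 to 7, 1 to 4 and 23 to 26 when 1 library was left out. In KO they were 24, 11, 4 and 24, with 19 to 27, 6 to 10, 0 to 5 and 24 to 27. The study's fold limit gave 6, 0, 1 and 12 in WT and 3, 0, 0 and 13 in KO. Total counts gave 3 in WT and 8 in KO at gd19.5 against gd16.5, DESeq2 8 in KO at that step, and the yolk sac covariate 5 in KO at gd16.5 against gd14.5 and 1 in KO at gd19.5 against gd16.5. The replicate block gave WT counts of 24, 8, 5 and 25, KO counts of 25, 10, 4 and 24, no call for KO against WT, all within 1.5 times, and of the genes named it changed the call of *Hif3a* in WT at gd19.5 (adjusted p = 0.0702). *Gapdh* in KO against WT at gd10.5 was -0.076 on the log2 scale, and 0.0057 with the Y-linked covariate and -0.12 to 0.0055 with 1 library left out, the highest without KO gd10.5 replicate 2, all with adjusted p near 1. Without a filter many weakly counted genes entered the fit, and the cause of the extra calls was not tested. With 3 libraries per group, differences such as that of *Car9* at 2.79 CPM or less are limited by counting depth as well as by replicate number.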
